A study of Mus musculus with 8 samples.

Results

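The MYC family was examined in carcinomas of the gastric squamous-columnar junction (SCJ), the border between the squamous forestomach and the glandular stomach of the mouse. The family was taken as 9 genes chosen by symbol: Myc, Mycn and Mycl, their common partner Max, and the antagonists Mxd1, Mxd3, Mxd4, Mxi1 and Mnt. All 9 were found among the 23361 genes of the table, Mycl under its older symbol Mycl1 and matched by its Entrez number 16918. All 9 were also among the 14357 genes tested, those with at least 1 FPKM in at least 3 samples. FPKM counts fragments per length of transcript and per library size. RNA sequencing compared 5 SCJ cancers with the SCJ of 3 control stomachs. The cancers, labelled Trp53-/-Rb1-/-, came from Lgr5-eGFP-Ires-CreERT2 mice with loxP-flanked Trp53 and Rb1 and the Ai9 tdTomato reporter. Tamoxifen had been given long before, and tumor borders were cut along the tdTomato signal. The controls were labelled wild type and came from age-paired mice, so the groups also differ in the Cre and reporter alleles. Cre was driven from the Lgr5 locus and deleted both genes in Lgr5+ cells and their progeny, whereas each sample was bulk tissue that also holds other cells. The labels give neither age nor sex for each sample.

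MYC, MYCN and MYCL are transcription factors of the basic helix-loop-helix leucine zipper class that bind DNA as dimers with MAX and activate genes for growth, ribosome production and metabolism. The MXD proteins, MXI1 and MNT also dimerize with MAX, bind the same E-box sequence and repress. MXD1 is known for rising as epithelial cells differentiate and MXD3 for its expression in dividing cells, while MYCN and MYCL are best known from neural and neuroendocrine tumors.

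The libraries set limits on what follows. FPKM were deposited as whole numbers, so a gene near 1 or 2 FPKM moves in coarse steps, and read depth is unknown. FPKM summed to between 403569 and 573858 in the cancers and between 887141 and 992550 in the controls. When each library was rescaled to the same sum (TPM), the median of log2 fold changes over every gene tested moved from -0.04 to 0.81, and the share of called genes that were higher in the cancers from 47.0% to 93.1%. Each member is therefore also given relative to that median. Rb1, 1 of the deleted genes, had 4, 4, 5, 6 and 4 FPKM in cancers 1 to 5 against 9, 9 and 10 in controls 1 to 3, which lies 0.86 on the log2 scale below the median of all genes on both scales. A value per gene cannot show which exons were lost. The 8 squamous markers summed to 2316 to 4005 FPKM in the controls and the 10 glandular markers to 158537 to 240752, so both epithelia of the junction were present, although Pgc was listed at 0 in controls 2 and 3 and at 28832 in control 1. The 8 immune markers summed to 144 FPKM in cancer 1, with Cd79a at 68, against 14 to 35 in the other cancers. The 6 hepatocyte markers summed to 510 FPKM in cancer 5, against 4 to 63 in the other cancers. In bulk tissue fewer cells of a type and less RNA per cell cannot be told apart. The controls were separate stomachs, and the labels do not say whether the cancers came from separate animals, so p-values measure the spread between these samples.

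Of the 9 members, 2 passed an adjusted p under 0.05 in limma, a linear model fitted across all genes tested. On the tested scale of log2(FPKM + 1), Mxd1 was about 5.06 times lower in the cancers and Mxd3 about 2.31 times higher. The added 1 shrinks the change more for a low gene such as Mxd3, whose mean was 8.60 FPKM in the cancers and 3 FPKM in the controls. The other 7, all 3 MYC genes and Max included, did not pass. Among all genes tested 34.5% passed, 16.2% higher and 18.3% lower in the cancers, so a share of 22.2% called is not above the background. The groups did not overlap for 3 members, Mxd1, Mxd3 and Mxi1, beside 34.1% of all genes tested. The median log2 fold change of the 9 members was -0.02, next to -0.04 for all genes.

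**Figure D1:**
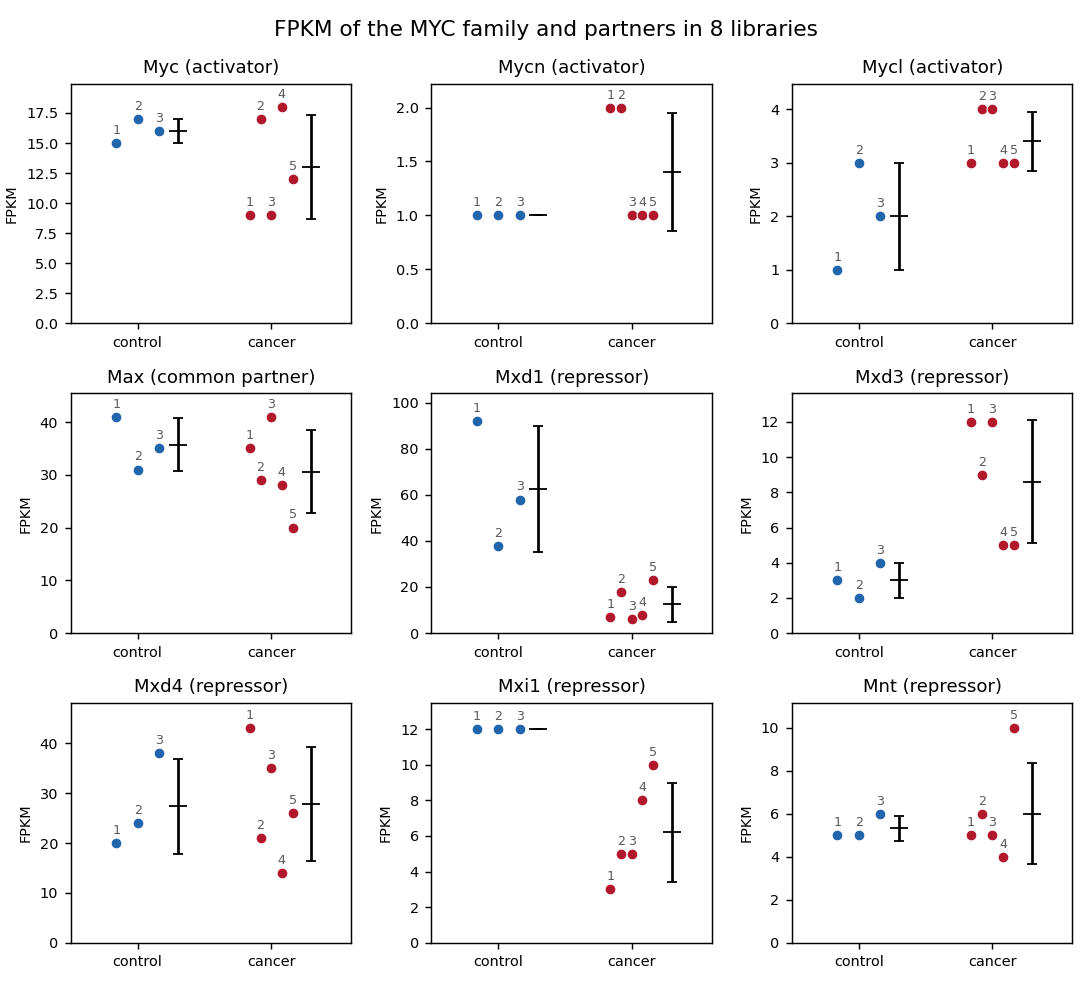
FPKM of the 9 members in each library, with 1 panel a gene, control samples in blue, cancers in red, the replicate number beside each point, and the group mean with its SD as a black bar. Each vertical axis starts at 0 and has its own range. For Mxd1 every control, at 38 to 92 FPKM, lies above every cancer, at 6 to 23 FPKM, whereas Myc, Max, Mxd4 and Mnt overlap between the groups.

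Myc (chromosome 15, 61985341 to 61990361, mm10), the most widely expressed of the 3 activators, had 9, 17, 9, 18 and 12 FPKM in cancers 1 to 5 and 15, 17 and 16 FPKM in controls 1 to 3. Cancers 1 and 3 lay lowest and cancers 2 and 4 within or just above the range of the controls. Its mean was 13 ± 4.30 FPKM (SD, n = 5) in the cancers and 16 ± 1 FPKM (SD, n = 3) in the controls. Myc had a log2 fold change of -0.33 with a 95% confidence interval from -0.92 to 0.25 (limma adjusted p = 0.32). After rescaling to TPM every cancer was above every control and the log2 fold change reversed to 0.59 (limma adjusted p = 0.036). With array weights, which give variable libraries less influence, Myc was instead called lower (log2 fold change -0.54, limma adjusted p = 0.033). The TPM value was 0.22 below the median of all genes on the same scale, where the deposited scale gave 0.30 below.

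Mycn (chromosome 12, 12936093 to 12941836), the neural member, was the lowest of the 9 genes in both groups. It had 2, 2, 1, 1 and 1 FPKM in the cancers and 1 FPKM in each control. Its log2 fold change was 0.23 (95% interval -0.23 to 0.70, limma adjusted p = 0.37). At this level the rounding alone lets the log2 fold change lie anywhere between -0.44 and 0.93, so the data do not fix its direction. With TPM every cancer (1.79 to 4.96) was above every control (1.01 to 1.13) and Mycn was called higher (log2 fold change 0.88, limma adjusted p = 0.040), 0.07 above the median of all genes. Mycl (chromosome 4, 122996099 to 123002480) had 3, 4, 4, 3 and 3 FPKM in the cancers and 1, 3 and 2 FPKM in the controls. Every cancer was at or above the highest control, which equalled 3 of the cancers. The log2 fold change of Mycl was 0.60 (standard error, SE, 0.23, 95% interval 0.06 to 1.14) and did not pass (limma adjusted p = 0.080). The exact permutation test of Mycl gave p = 0.071, two-sided over the 56 ways to divide 8 samples into 5 and 3, where the smallest possible p is 0.018. Mycl passed without control 2 (log2 fold change 0.84, limma adjusted p = 0.046) and with TPM (1.42, limma adjusted p = 0.0057). Its excess over the median of all genes was 0.64 on the deposited scale and 0.61 with TPM. The 8 neuroendocrine markers, to which the known setting of Mycl belongs, summed to between 8047 and 17897 FPKM in the cancers and between 125 and 188 in the controls, with all 8 called higher. Their part in the level of Mycl was not tested.

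Max (chromosome 12, 76937269 to 76962248), the partner that the MYC proteins need to bind DNA, had 35, 29, 41, 28 and 20 FPKM in the cancers and 41, 31 and 35 FPKM in the controls. Cancer 5 was lowest and cancer 3 equalled the highest control. Its log2 fold change was -0.24 (95% interval -0.77 to 0.29, limma adjusted p = 0.42). This value turned to 0.71 with TPM (limma adjusted p = 0.057) and to 0.15 after quantile normalization (limma adjusted p = 0.71). On the TPM scale this was 0.10 below the median of all genes.

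Mxd1 (chromosome 6, 86647045 to 86669159), the repressor tied to differentiation, showed the largest change of the family. It had 7, 18, 6, 8 and 23 FPKM in the cancers and 92, 38 and 58 FPKM in the controls. Cancers 2 and 5 kept more than the other cancers, and the highest cancer still lay below the lowest control. The mean fell from 62.7 ± 27.3 FPKM (SD, n = 3) to 12.4 ± 7.64 FPKM (SD, n = 5). The log2 fold change of Mxd1 was -2.34 with a standard error (SE) of 0.49 (limma adjusted p = 0.011), and the two-sided exact permutation test gave p = 0.018, the smallest possible. It passed in all 8 fits that left out 1 library, with adjusted p from 0.0086 to 0.0497 in limma and the highest value without control 1. Without cancers 1 and 5 together the log2 fold change was -2.49 (limma adjusted p = 0.025). With TPM it was -1.44 (limma adjusted p = 0.029), cancer 5 at 51.6 TPM then exceeded control 2 at 42.8 TPM, and the distance below the median of all genes was 2.25, against 2.30 on the deposited scale.

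The summed levels of markers of both epithelia are set beside Mxd1 here. The glandular markers summed to between 694 and 78716 FPKM in the cancers and between 158537 and 240752 in the controls, with Atp4a, Atp4b, Gif, Muc5ac and Muc6 listed at 0 in cancer 1. Of these 10 genes 1 (Gkn1) was called lower and 0 higher, beside 18.3% of all genes called lower, and 3 overlapped between the groups. The count ran from 0 to 4 when 1 library was left out. The squamous markers summed to between 8 and 1723 FPKM in the cancers and between 2316 and 4005 in the controls, with 3 of 8 called lower (0 to 4 with 1 library left out), 0 called higher, and Krt5, Krt14, Krt4 and Krt13 listed at 0 in cancer 1. Of these 8 genes 4 (Krt5, Krt14, Trp63 and Ivl) overlapped between the groups, and in cancer 4 the basal keratins Krt5 (574 FPKM) and Krt14 (403 FPKM) exceeded every control. The part of the epithelial markers in the lower Mxd1 was not tested. Among the cancers, 1 and 3 were lowest both in Mxd1 and in the glandular sum (694 and 6015 FPKM). Cancers 2, 4 and 5 had glandular sums of 78716, 55566 and 16662 FPKM with 18, 8 and 23 FPKM of Mxd1.

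Mxd3 (chromosome 13, 55322055 to 55329730), the repressor of dividing cells, went the opposite way to Mxd1. It had 12, 9, 12, 5 and 5 FPKM in the cancers and 3, 2 and 4 FPKM in the controls. The groups did not overlap, but cancers 4 and 5 were only 1 FPKM above the highest control. The log2 fold change of Mxd3 was 1.21 (SE 0.34, limma adjusted p = 0.030), and the two-sided exact permutation test gave p = 0.036. Rounding allows any value between 0.95 and 1.49, so the direction does not hang on it. The call depended on single libraries, since limma gave adjusted p of 0.056, 0.053 and 0.065 without cancer 1, 2 or 3 and of 0.088, 0.11 and 0.053 without control 1, 2 or 3. After quantile normalization the adjusted p was 0.060 from limma, and without cancers 1 and 5 together it was 0.057. With TPM the log2 fold change was 2.12, or 1.31 above the median of all genes, against 1.25 on the deposited scale. The 10 proliferation markers summed to 438, 347, 419, 261 and 250 FPKM in cancers 1 to 5 and to 199, 152 and 143 in the controls, with 5 of 10 called higher, beside 16.2% of all genes, and 0 lower. The count was 1 without control 2 or control 3 and 8 without cancer 4. Cancers 1 to 3 thus had both more Mxd3 and more of these markers than cancers 4 and 5, and the part of dividing cells in the rise was not tested. The 3′ end of Mxd3 shares 105 bases with the convergent gene Prelid1 in GENCODE M21, but the longer interval that the table gives for Mxd3 shares 3218 bases with it. Prelid1 had between 109 and 207 FPKM in the cancers and between 221 and 260 in the controls, and whether reads were counted by strand is not stated, so some reads of Mxd3 may belong to it.

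Mxi1 (chromosome 19, 53310506 to 53375810) came close to the threshold. It had 3, 5, 5, 8 and 10 FPKM in the cancers and 12 FPKM in each control, so every cancer was lower. For Mxi1 limma gave a log2 fold change of -0.94 (SE 0.31, adjusted p = 0.051), with p = 0.036 in the two-sided exact permutation test. It passed without cancer 4 (limma adjusted p = 0.048) and without cancer 5 (limma adjusted p = 0.024), the cancers with the highest values. Mxi1 also passed with array weights (limma adjusted p = 0.0065), with a filter on a mean of at least 5 FPKM (limma adjusted p = 0.043) and without cancers 1 and 5 together (limma adjusted p = 0.027). With TPM the log2 fold change was -0.08 (limma adjusted p = 0.84), which is 0.89 below the median of all genes, beside 0.90 below on the deposited scale.

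Mxd4 (chromosome 5, 34176580 to 34187710), a repressor found in resting and differentiated cells, had 43, 21, 35, 14 and 26 FPKM in the cancers and 20, 24 and 38 FPKM in the controls. The cancers spread to both sides of the controls, and the log2 fold change of -0.02 had a 95% interval from -0.89 to 0.84 (limma adjusted p = 0.97). Mnt (chromosome 11, 74830924 to 74845725), the broadly expressed antagonist, had 5, 6, 5, 4 and 10 FPKM in the cancers and 5, 5 and 6 FPKM in the controls. Cancer 5 stood highest and the others lay at or beside the controls. For Mnt limma gave a log2 fold change of 0.09 (95% interval -0.49 to 0.68, adjusted p = 0.80), and it reached 0.97 with TPM (limma adjusted p = 0.034), 0.16 above the median of all genes on that scale.

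**Figure D2:**
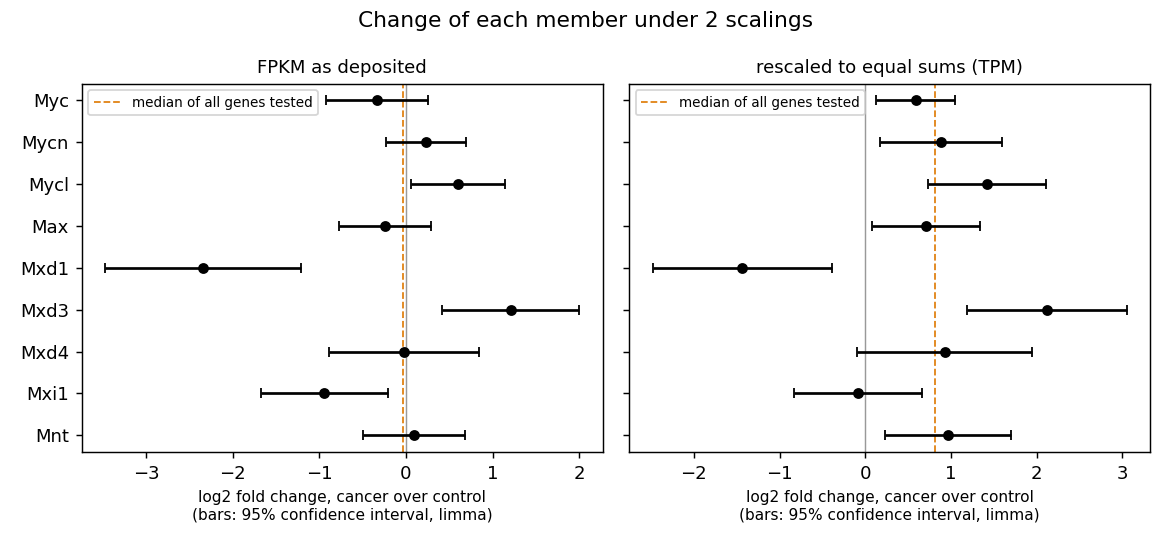
Log2 fold change of each member, cancer over control, with 95% confidence intervals from limma as bars, for FPKM as deposited on the left and after rescaling every library to the same sum (TPM) on the right. The dashed line is the median of all genes tested, at -0.04 and 0.81. Mxd1 and Mxi1 lie to the left of that line and Mxd3 to the right in both panels, with intervals that do not reach it. Mycl lies 0.64 and 0.61 to the right, with an interval that reaches the line in the TPM panel. The other members lie nearer to the line, and all members shift with it.

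FPKM are scaled by length, so levels can be set side by side between genes. In the controls the means ran in the order Mxd1, Max (35.7 FPKM), Mxd4 (27.3 FPKM), Myc (16 FPKM), Mxi1 (12 FPKM), Mnt (5.33 FPKM), Mxd3 (3 FPKM), Mycl (2 FPKM) and Mycn (1 FPKM). Neighbours whose control ranges met were Mxd1 and Max, Max and Mxd4, Mxd3 and Mycl, and Mycl and Mycn. In the cancers Max (30.6 FPKM) led, followed by Mxd4 (27.8 FPKM), Myc (13 FPKM), Mxd1 (12.4 FPKM), Mxd3 (8.60 FPKM), Mxi1 (6.20 FPKM), Mnt (6 FPKM), Mycl (3.40 FPKM) and Mycn (1.40 FPKM). There the ranges of all neighbours met except Mycl and Mycn. Mxd1 thus stood at the head of the family in the control junction and in the middle of it in the cancers.

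Shares within a library do not depend on its scaling. Mxd1 made up 69.7%, 46.9% and 49.2% of the summed FPKM of the 5 antagonists in controls 1 to 3 and between 9.52% and 31.1% in the cancers. The share of Mxd3 was 2.27% to 3.39% in the controls and 6.76% to 19.0% in the cancers. The share of Mxd4 was 15.2% to 32.2% in the controls and 35.1% to 61.4% in the cancers, while its own FPKM overlapped between the groups. The antagonists together summed to 132, 81 and 118 FPKM in the controls and to 70, 59, 63, 39 and 74 FPKM in the cancers, ranges that do not overlap. With TPM these sums ran from 69.7 to 173 in the cancers and from 91.3 to 138 in the controls and do overlap. Mxd1 was the antagonist whose mean FPKM differed most. Among the 3 MYC genes Myc held 81.0% to 88.2% in the controls and 64.3% to 81.8% in the cancers, with Mycl at 5.88% to 14.3% and 13.6% to 28.6%. Antagonists exceeded MYC genes by 3.86 to 7.76 times in the controls and by 1.77 to 5.00 times in the cancers, and these ranges overlap. The shares are sums over chosen genes and are given without a test.

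**Figure D3:**
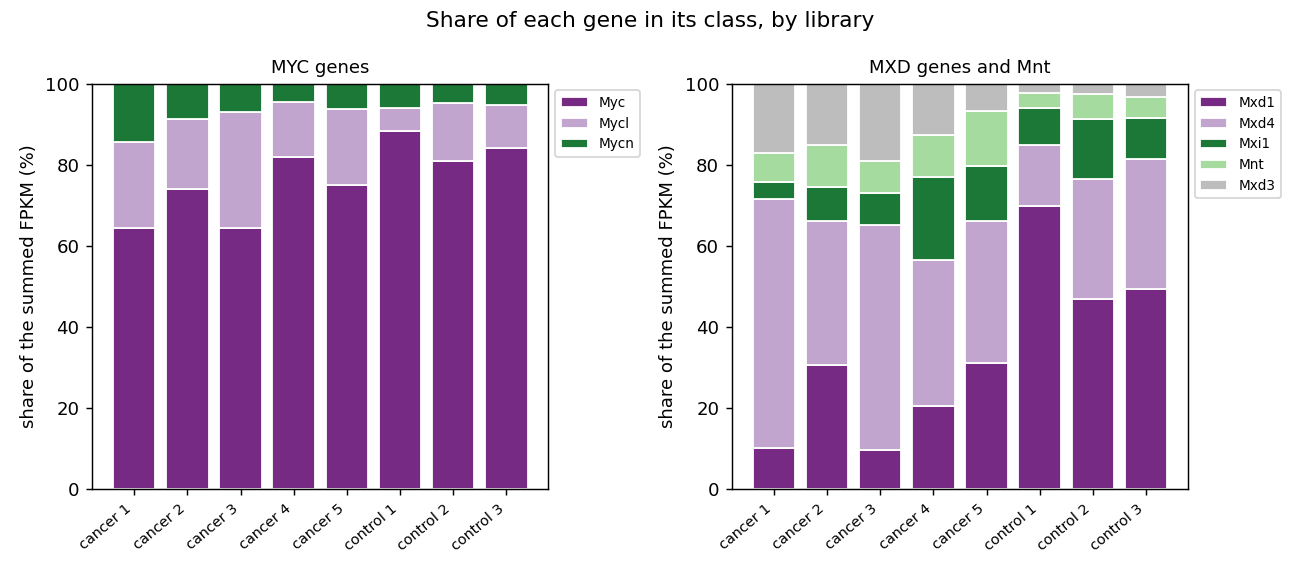
Share of each gene in the summed FPKM of its class, in percent, with 1 stacked bar for each library, for Myc, Mycl and Mycn on the left and for the antagonists on the right. Mxd1 fills 46.9% to 69.7% of the bars of the controls and 9.52% to 31.1% of those of the cancers.

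Whether members changed differently from each other was tested on their log2 ratio within each library, for 7 pairs. The largest difference was between Mxd3 and Mxd1. Their log2 ratio was -0.38 ± 1.20 (SD, n = 5) in the cancers and -3.93 ± 0.53 (SD, n = 3) in the controls, a difference of 3.55 with a SE of 0.75 (two-sided exact permutation test, p = 0.018, adjusted p = 0.063 over the 7 pairs). Mxd3 also gained on Mxd4 by 1.23 (SE 0.29, exact permutation p = 0.018, adjusted 0.063) and on Mxi1 by 2.15 (SE 0.68, exact permutation p = 0.036, adjusted 0.083). Myc lost ground to Mycl by a log2 ratio of -0.93 (SE 0.34, exact permutation p = 0.071, adjusted 0.13). None of the 7 pairs passed after adjustment in this exact permutation test, and 3 had an unadjusted p under 0.05. The 2 pairs at the smallest possible p of 0.018 did not pass, since adjustment over 7 pairs also depends on the p of the other pairs. The adjusted values therefore say little about a single ratio.

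Rescaling does not touch the ratio of a gene to Max either. Mxd1 stood at 1.23 to 2.24 times the FPKM of Max in the controls and at 0.146 to 1.15 times in the cancers. Mxd3 stood at 0.0645 to 0.114 and 0.179 to 0.343 times. For Myc the ratio was 0.366 to 0.548 in the controls and 0.220 to 0.643 in the cancers, a wider range on both sides.

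The genes whose profile over the 8 libraries was most like that of Myc were sought among the 9137 other genes with a mean of at least 5 FPKM, by the root mean square difference of centred log2 values. They were Rpl29, a ribosomal protein gene (0.0776), Gapdh, a glycolytic enzyme (0.0791), and Mrpl38, a mitochondrial ribosomal protein gene (0.0823). The profile of Myc itself had an SD of 0.356. Gapdh had 377, 651, 403, 806 and 534 FPKM in the cancers and 636, 673 and 716 FPKM in the controls, with the same low cancers 1 and 3 as Myc. Likeness was sought on the deposited scale only. The summed FPKM was also lowest in cancers 1 and 3 (403569 and 438744), and the part of library scaling in the likeness was not tested. For Mycl the nearest were Ankrd46 (0.184), BC026585 (0.197) and Plscr3 (0.208), and for Mycn Gm1943 (0.127), Cpsf3l (0.130) and Lamc1 (0.133). At 1 to 4 FPKM these likenesses rest on few steps.

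The sequence that MYC and MXD dimers with MAX bind best, the E-box CACGTG, was searched in the RefSeq promoters of the members, from 250 bases before to 50 after the start (GRCm38.p6). A promoter was found for 8 of the 9 members, not for Myc. An E-box was in the promoters of 3 of these 8 genes, Max, Mnt and Mxd4, beside 8.09% of all genes with a promoter in that set and 7.15% of all promoters. None of these 3 was among the members called, and Mxd1, Mxd3 and Mxi1 had no such letters in the window. The matches are shown on the strand of the gene because they are the letters that dimers with MAX recognise, with the E-box, which reads the same on both strands, in capitals. They lie at chr12:76962235-76962262 (Max, minus strand), chr11:74830790-74830817 (Mnt, plus strand) and chr5:34187913-34187940 (Mxd4, minus strand).
Max: gtgagcccggtCACGTGttagggggccg
Mnt: cccacccaagcCACGTGtgcgcgcgcgg
Mxd4: ggctgggccacCACGTGctgttgctaag

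RB1 restrains the E2F factors, so the E2F elements TTTCGCGC and TTTGGCGC were searched on both strands in the same windows. Of the members only Mycn held them, beside 0.929% of all genes with a promoter and 0.813% of all promoters. They lie 183 to 161 bases before its start, at chr12:12941986-12942030 on the minus strand, and are shown in capitals, the left pair overlapping each other.
Mycn: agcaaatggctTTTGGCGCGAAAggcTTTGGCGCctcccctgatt
Mycn stayed at 1 to 2 FPKM in every library. A match is a description of letters and no evidence of binding here.

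MLX, MLXIP and MLXIPL form a parallel network that answers to glucose and shares the MXD proteins, and MGA is another partner of MAX. Of these 4 genes Mlx was called lower. Mlxipl, the glucose-responsive factor ChREBP, was listed at 0 in all 3 controls and had 10, 7, 13, 1 and 4 FPKM in the cancers. It was among the genes tested only through the cancers, where it was high, so its call is not counted. Mlx had 20, 33, 27, 31 and 30 FPKM in the cancers and 56, 41 and 52 FPKM in the controls (log2 fold change -0.80, SE 0.19, limma adjusted p = 0.017). With TPM the log2 fold change of Mlx was 0.15 (limma adjusted p = 0.45). Relative to the median of all genes it was -0.77 on the deposited scale and -0.66 with TPM. Mga (log2 fold change 0.15, limma adjusted p = 0.76) and Mlxip (0.05, limma adjusted p = 0.88) did not pass.

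For genes that act on the MYC proteins the count of calls depended on the scaling. Of 17 cofactors 1 was higher and 1 lower, a share of 11.8% beside 34.5% of all genes. With TPM 14 were higher and 0 lower, where 7176 of all 14357 genes were called higher and 528 lower. With array weights 3 were higher and 4 lower, where 3909 of all genes were called higher and 4239 lower. Ruvbl1, a helicase of MYC-bound chromatin complexes, had a log2 fold change of 0.68 (limma adjusted p = 0.035) and passed in 3 of the 8 fits without 1 library. Mycbp, which encodes a MYC-binding protein, had -0.86 (limma adjusted p = 0.010) and passed in all 8, but with TPM its log2 fold change was 0.06 (limma adjusted p = 0.76). Relative to the median of all genes that is -0.75, against -0.82 on the deposited scale. Hdac2 (0.56), Kat2a (-0.38) and Ruvbl2 (0.35), which modify or remodel chromatin, did not pass. Of 12 genes that set the stability of the proteins 2 were higher and 0 lower. That is a share of 16.7%, beside 16.2% of all genes called higher and 34.5% called in either direction. The count fell to 0 without cancer 1, cancer 3, control 2 or control 3. With TPM 8 were higher and 0 lower, again beside 7176 of all 14357 genes called higher and 528 lower. Aurka, the mitotic kinase that protects MYCN from degradation, had 15, 12, 14, 6 and 9 FPKM in the cancers and 6, 4 and 4 FPKM in the controls (log2 fold change 1.06, SE 0.29, limma adjusted p = 0.028). Cancer 4 equalled the highest control, and the call held in 3 of the 8 fits. Skp2, a ubiquitin ligase subunit that acts on MYC and is tied to S phase, had a log2 fold change of 0.90 (limma adjusted p = 0.031) and passed in 4 of the 8. Cip2a, which shields MYC from a phosphatase, had 1.03 (limma adjusted p = 0.10), Usp28 -0.32 and Usp7 -0.28, and these did not pass.

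The genes that MYC is known to activate were spread around 0. Of 35, 1 was higher and 5 were lower, together 17.1% beside 34.5% of all genes, and their median log2 fold change was 0.00 beside -0.04. Those lower were Ccnd2, a G1 cyclin (-2.19, limma adjusted p = 0.0045), Slc16a1, a lactate carrier (-1.89, adjusted p = 0.022), Ldha, lactate dehydrogenase (-1.48, adjusted p = 0.040), Tfrc, the transferrin receptor (-1.43, adjusted p = 0.038), and Bop1, a ribosome assembly factor (-0.79, adjusted p = 0.029). Ccnd2 had 6, 12, 4, 7 and 11 FPKM in the cancers and 52, 38 and 27 FPKM in the controls and passed in all 8 fits without 1 library. The other 4 passed in 1 to 4 of the 8. The nucleolar gene Nop56, named because it alone was called higher, had a log2 fold change of 0.56 (limma adjusted p = 0.028) and passed in 3 of the 8. With TPM, where 7176 of all 14357 genes were called higher and 528 lower, the list had 26 higher and 1 lower (Ccnd2, -1.31, limma adjusted p = 0.014), Bop1 turned to 0.13 (0.68 below the median of all genes), and the median was 0.94, next to 0.81 for all genes. An E-box was in the promoter of 10 of the 30 listed genes with a RefSeq promoter, a share of 33.3% beside 8.09% of all such genes.

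Genes that MYC represses together with ZBTB17 (MIZ1) moved both ways. Of 6 genes 2 were higher and 3 lower, beside 34.5% of all genes called, and the groups did not overlap for 5, beside 34.1%. The 5 calls became 2 without control 1, 2 or 3 and 3 without cancer 3, and among single genes Cdkn1a passed in 2, Cdkn2b in 3 and Cdkn1b in all 8 of the fits without 1 library. The kinase inhibitor Cdkn1b, with 60, 28, 61, 30 and 47 FPKM in the cancers and 13, 11 and 18 FPKM in the controls, rose by 1.58 on the log2 scale (SE 0.32, limma adjusted p = 0.0094). The stress gene Gadd45a rose by 0.89 (limma adjusted p = 0.015). The inhibitor Cdkn2b had 8, 18, 15, 34 and 17 FPKM in the cancers and 47, 39 and 48 FPKM in the controls (-1.36, limma adjusted p = 0.029). Ndrg2, a gene tied to differentiation, had 4 to 18 FPKM in the cancers and 26 to 39 FPKM in the controls (limma adjusted p = 0.016). The log2 fold change of the inhibitor Cdkn1a was -1.94 (limma adjusted p = 0.041). With TPM 2 of the 6 were called higher and 0 lower, beside 7176 of all 14357 genes called higher and 528 lower. Relative to the median of all genes Cdkn1a was at -1.90 on the deposited scale and -1.79 with TPM, Cdkn2b at -1.33 and -1.24, and Ndrg2 at -1.76 and -1.72.

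**Figure D4:**
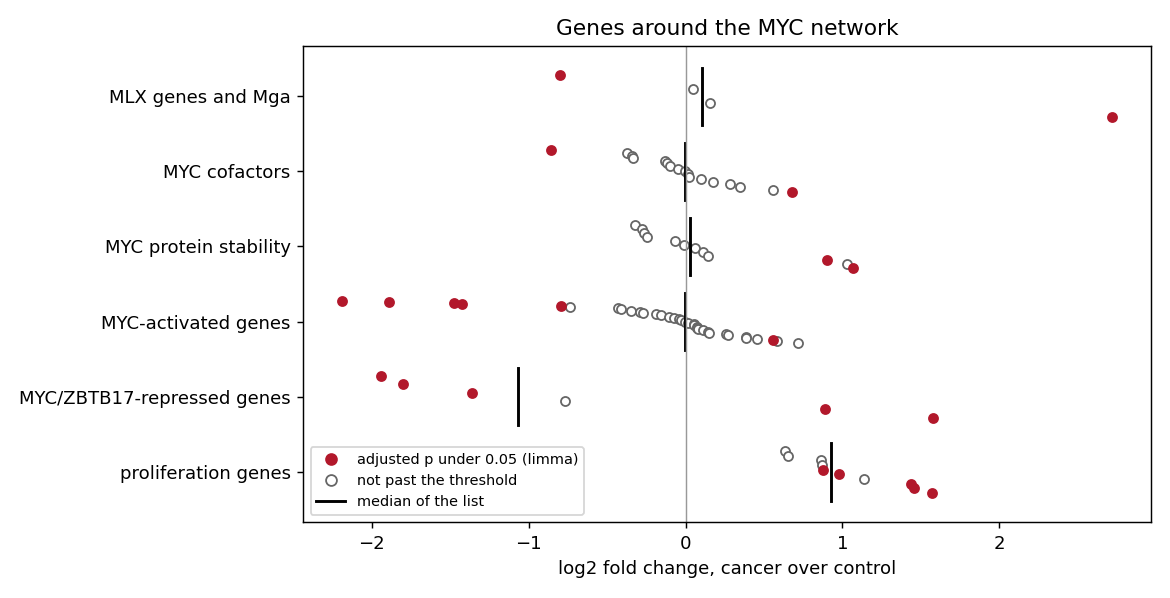
Log2 fold change, cancer over control, of each tested gene in 6 lists around the MYC network. Filled red points passed an adjusted p under 0.05 in limma, open points did not, and a black line marks the median of each list. The 35 MYC-activated genes centre near 0 with 5 red points on the left and 1 on the right, whereas all 10 proliferation genes lie to the right of 0.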

How the data were processed

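RNA was sequenced from 5 cancers and 3 controls, each a column of 1 table, and grouped by the sample titles. Per the labels and methods, the authors used cutadapt 1.8, TopHat2 2.0.13, cuffquant and Cuffnorm 2.2.1 on mm10; the library option of Cuffnorm is not given in the sources used here. The deposited values are FPKM rounded to whole numbers and were treated as a score, not as counts (100% of values whole). Depth is unknown, so no counting intervals are given.

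log2(FPKM + 1) was the tested value. The test was the moderated test of limma 3.58.1 under R 4.3.3, with its trend option. Adjusted p-values follow Benjamini and Hochberg over all 14357 genes tested, at a threshold of 0.05. Fold changes are on that log2 scale and understate changes of low genes. The limma script was tested on simulated data. Single genes and ratios were compared by two-sided exact permutation tests. Members and lists were chosen with earlier results of these data known, and so were the tests. Named genes were the 9 members, the MLX genes and Mga, and up to 5 genes with the largest change in each list that is not a marker list. All 146 list entries were found in the table, by symbol or Entrez number. Start coordinates of the table were shifted by 1 base to count from 1. Promoters came from RefSeq (GRCm38.p6). The level of 1 deleted gene is not reported here. Alternatives were pseudocounts of 0.1 and 0.01, filters, scalings, array weights, eBayes without trend, a replicate block, rounding bounds and leaving out samples.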

Additional observations from a re-analysis of the deposited data

How the results depend on the processing

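Leaving out cancers 1 and 5 together was chosen after seeing the data; the other alternatives were planned. The 4948 called genes became 7704 with TPM, 8148 with array weights, and 2490 to 5252 with 1 sample left out (2490, 2643 and 2815 without control 1, 2 and 3). A mean FPKM of at least 5 gave 3519, of which 35.4% were higher. The 2 called members became 6 with TPM (5 higher, 1 lower), 4 with array weights (1 higher, 3 lower), 1 after quantile normalization (Mxd1) and 1 to 3 with 1 sample left out. Mxd1 was called in all alternatives run except the replicate block. Deviations of same-numbered samples correlated at -0.021, -0.19 and -0.10, and those of differently numbered ones at -0.082 to 0.14. No pairing by replicate number was seen, but so few samples cannot exclude one. The replicate block gave 1580 called genes and 1 member, Mxd3, with Mxd1 at -2.55 (limma adjusted p = 0.090) and Mxd4 at 0.256.

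Members that did not pass in the deposited values changed sign most often. With TPM Myc had a log2 fold change of 0.588, Max 0.711 and Mxd4 0.928. After quantile normalization Mycn had -0.209, Max 0.148, Mxd4 0.330 and Mnt -0.00087. Mxd4 had 0.076 with median ratio scaling, 0.240 with array weights, and -0.21 to 0.232 with 1 sample left out. Mnt had -0.0843 to 0.20 with 1 sample left out and -0.0877 without cancers 1 and 5. The rounding bounds reached -0.442 for Mycn, 0.0322 for Mxd4 and -0.133 for Mnt. Of the tested values for single members 135 kept both direction and call, 15 reversed, 9 were weaker and 10 stronger. The ratios could hardly pass when 1 sample was left out, since the exact test cannot go below p = 0.029 without 1 cancer or 0.048 without 1 control before adjustment. What causes them was not tested.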
